A study of Homo sapiens with 16 samples.

Results

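The 40 genes described here act in the late part of the cell division cycle, from the switch into mitosis to the cleavage of the cell. They were taken as a list of symbols (mitotic kinases, kinesins, centromere and anaphase genes) out of the 23230 gene symbols counted, and all 40 were found in every library and kept for testing. The samples were mRNA libraries of 8 established human blood cell lines, labelled as blood cancers or, for P493-6, as a model of one, 16 libraries in all. Every line had 1 library from cells given Y518R, a peptide ligand of DPY30, and 1 from cells given 3R, a control peptide without that binding. DPY30 is a core subunit of the complexes that methylate lysine 4 of histone H3, and the title of the series concerns blocking its activity to slow blood cancer cells. Leukemias with a rearranged MLL gene gave 4 of the lines, labelled MLL-AF9 (MOLM13 and THP1), MLL-AF4 (RS4-11) and MLL-ENL (KOPN8). The 4 other lines were K562 (BCR-ABL leukemia), JURKAT (labelled as a Myc dependent leukemia of T cells), RAJI (Burkitt's lymphoma) and P493-6 (labelled as a Burkitt's lymphoma model). All of them grew in Advanced RPMI with 2.5% fetal bovine serum. No group lacked a peptide, and the sources used here give neither the dose nor the time of exposure. Nothing in the labels says that the libraries of a line came from separate cultures. The p-values of peptide and class comparisons below therefore measure the spread between lines. The later test of levels between lines is set against the spread between the libraries of a line.

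Entry into mitosis is driven by the kinase CDK1 bound to cyclins A and B, which CDC25 phosphatases switch on. Polo and Aurora kinases then build the spindle, kinesins move chromosomes and microtubules along it, and the checkpoint kinases and adaptors hold back the anaphase-promoting complex until every chromosome is attached. Transcripts of most of these genes are made late in the cycle, peak in G2 and mitosis and are low in resting cells, which is why they serve as proliferation markers in leukemia. In RNA from a whole culture, fewer cells in G2 and mitosis and less RNA per cell cannot be told apart.

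Promoters of genes of this phase often carry CCAAT boxes, which bind the factor NF-Y, and a cell cycle genes homology region (CHR), which binds the MuvB complex together with DREAM, B-MYB or FOXM1. RefSeq promoter entries (GRCh38.p14, matched by symbol) were found for 33 of the 40 genes, 43 entries in all. In the 250 bases before the start, CCAAT on either strand stood in 35 of the 43 entries (81.4%), against 32% of all 35116 entries. A CHR, searched as TTTGAA or TTCGAA on either strand, stood in 22 (51.2%), against 14.3% of all entries. Both motifs stood in 20 (46.5%), against 5.05%. Counted by gene, 30 of 33 held a CCAAT box, 20 held a CHR and 19 held both, against 37%, 17.2% and 6.24% of all 27305 genes. With the 50 bases after the start searched too, a CHR stood in 29 of the 43 entries (67.4%), against 16.4% of all entries. These are matches of letters and show no binding. The 150 bases before the start are printed for 6 genes whose levels are described further on. These were the genes with 1 promoter entry and no annotated exon of the same strand within these bases. The windows show layouts with and without a CHR. They read 5′ to 3′ on the strand of the gene, and capitals mark a CCAAT box (CCAAT or ATTGG) or a CHR (TTTGAA or TTCAAA).
KIF11, chr10:92592980-92593129, plus strand: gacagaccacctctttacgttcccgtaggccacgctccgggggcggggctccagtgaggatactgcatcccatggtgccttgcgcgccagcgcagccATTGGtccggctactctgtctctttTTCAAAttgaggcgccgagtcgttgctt
ESPL1, chr12:53268149-53268298, plus strand: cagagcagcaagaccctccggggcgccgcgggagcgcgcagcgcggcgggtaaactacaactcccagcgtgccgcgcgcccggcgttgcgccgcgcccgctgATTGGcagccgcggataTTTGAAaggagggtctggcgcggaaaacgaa
MKI67, chr10:128126424-128126573, minus strand: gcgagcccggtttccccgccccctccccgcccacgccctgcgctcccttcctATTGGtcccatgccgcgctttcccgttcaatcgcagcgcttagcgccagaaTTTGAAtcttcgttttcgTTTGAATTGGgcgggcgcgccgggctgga
CENPF, chr1:214603045-214603194, plus strand: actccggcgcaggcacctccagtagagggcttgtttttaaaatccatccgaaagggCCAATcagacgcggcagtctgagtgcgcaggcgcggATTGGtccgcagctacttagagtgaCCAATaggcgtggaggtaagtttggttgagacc
KIF14, chr1:200620752-200620901, minus strand: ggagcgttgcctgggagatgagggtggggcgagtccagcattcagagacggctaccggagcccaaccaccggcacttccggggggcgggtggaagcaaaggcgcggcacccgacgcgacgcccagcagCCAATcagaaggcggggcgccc
KIF20B, chr10:89701440-89701589, plus strand: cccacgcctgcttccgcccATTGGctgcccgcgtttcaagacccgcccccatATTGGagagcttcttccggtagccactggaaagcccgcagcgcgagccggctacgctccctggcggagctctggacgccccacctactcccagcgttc
In these windows KIF11 and ESPL1 each had 1 CCAAT box and 1 CHR a short way downstream of it. MKI67 had 2 of each, and at 1 place the CHR and the CCAAT box shared a base. CENPF had 3 CCAAT boxes, KIF20B had 2 and KIF14 had 1, and none of these 3 windows held a CHR as searched.

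Libraries held 19354300 to 43003124 counts in genes, and the 40 genes took between 0.23% (MOLM13 with Y518R) and 0.96% (JURKAT with Y518R) of them. Levels below are CPM, which are counts brought to a common depth with edgeR's TMM method, and they are not compared between genes because transcript lengths were not used. Markers of origin were checked at 10 CPM or more. At least 2 of HOXA9, HOXA10 and MEIS1 reached it in each MLL-fusion library and none elsewhere. All 4 B cell markers reached it in RS4-11, KOPN8, RAJI and P493-6, all 4 T cell markers in JURKAT and all 4 erythroid markers in K562, with at most 1 of a list elsewhere. Of 5 monocytic markers, 4 or 5 reached 10 CPM in MOLM13 and THP1 and at most 2 in the other lines. The RAJI 3R library stood apart, with 44.7% of its reads assigned to no gene against 17.7% to 26.9% in the 15 others (23.4% in RAJI with Y518R). Here and below these are shares of the reads placed in a gene, in no gene or in several genes. Reads of the other entries that name no gene were left out.

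The first question was whether Y518R changed these genes across all 8 lines. None of the 40 passed the test (edgeR quasi-likelihood test, adjusted p under 0.05), and none of the 13043 tested genes did (0% called). At an unadjusted p under 0.05 there was 1 of the 40, CDC25B, against 3.04% of all tested genes. DESeq2 and limma-voom called none of the 40 either. The 40 changes were small: they ran from -0.15 to 0.14 on the log2 scale, and the 95% interval of each lay within 1.5-fold in both directions. Of the 40, 28 lay above 0, with a median of 0.031, beside 49.1% of all tested genes, whose median was -0.0021. Without THP1 only 17 of the 40 lay above 0 and the median was -0.012, and without MOLM13 36 did and it was 0.076.

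**Figure D1:**
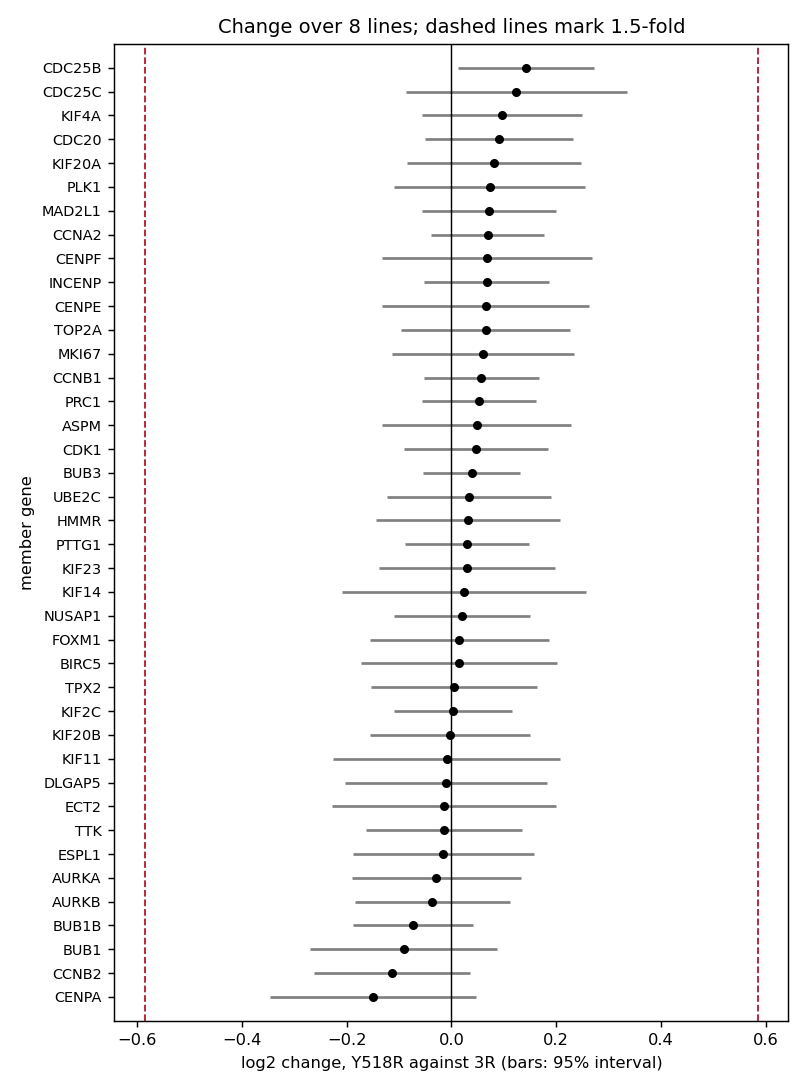
Log2 change with Y518R against 3R (horizontal axis) for each of the 40 genes over 8 lines, with dots for the estimate and bars for the 95% interval. The interval of CDC25B alone lies clear of 0, and every bar lies inside the dashed lines at 1.5-fold.

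Among the genes of the entry switch, 5 of 6 lay above 0. CDC25B, the phosphatase that starts CDK1 activation at the centrosome, had the highest change of all 40. Its levels with 3R and Y518R were 45.8 and 49.3 CPM in MOLM13, 28.6 and 38.5 in THP1, 96.5 and 101 in KOPN8, and 64.6 and 66.5 in RS4-11. In the other lines they were 55.2 and 67.4 in K562, 91.3 and 109 in RAJI, 148 and 152 in JURKAT, and 62.9 and 59.7 in P493-6. The gene was thus higher with Y518R in 7 of 8 lines, while the levels of the groups overlapped widely because lines differed more than peptides did. Its log2 change was 0.14 ± 0.061 (SE, n = 8 lines), with an unadjusted edgeR p of 0.033 and an adjusted p of 1. CCNA2, cyclin A, which acts in S phase and at mitotic entry, was likewise higher in 7 of 8 lines, at 0.069 ± 0.051. CDC25B, CCNA2 and BUB3 were the 3 of the 40 that kept 1 direction in at least 7 lines. So did 753 of the 13043 tested genes. CDC25C, the later-acting phosphatase, was at 0.12 ± 0.099. CCNB2, a B-type cyclin, was the exception in this group at -0.11 ± 0.070, with 63.9 CPM with 3R against 42.3 with Y518R in MOLM13 and, the other way, 122 against 135 in JURKAT. Without MOLM13 its change was -0.046.

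The lowest change of the 40 was that of CENPA, the histone H3 variant that marks the centromere. Its level with 3R and Y518R was 12.3 and 7.25 CPM in MOLM13, 42.7 and 43.5 in THP1, 38.2 and 33.1 in KOPN8, and 18.3 and 17.0 in RS4-11. In the other lines it was 51.4 and 44.2 in K562, 22.9 and 28.3 in RAJI, 41.3 and 37.0 in JURKAT, and 10.8 and 9.52 in P493-6. CENPA was higher with Y518R in 2 of 8 lines, and its change was -0.15 ± 0.093 and, without MOLM13, -0.077. CENPF, a large kinetochore protein, had the highest centromere change, 0.069 ± 0.094. Of 5 checkpoint genes 2 lay above 0. The kinase BUB1 was at -0.091 ± 0.084 and BUB1B, a subunit of the mitotic checkpoint complex, at -0.073 ± 0.053, whereas MAD2L1, another subunit of that complex, was at 0.073 ± 0.060. Without MOLM13 these 3 were at -0.028, -0.041 and 0.028, and BUB1 was at -0.032 without RAJI.

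In the other roles PLK1, the polo kinase, was at 0.073 ± 0.085 and the spindle pole kinase AURKA at -0.029 ± 0.076. In the chromosomal passenger complex the scaffold INCENP was at 0.067 ± 0.056 and its kinase AURKB at -0.036 ± 0.069. Kinesins ran from KIF4A, a chromokinesin, at 0.097 ± 0.072 to KIF11, the motor that pushes spindle poles apart, at -0.0092 ± 0.10, with 5 of 7 above 0. Without THP1 KIF4A was at 0.023. Spindle proteins ran from PRC1, which bundles midzone microtubules, at 0.052 ± 0.051 to DLGAP5, a stabiliser of kinetochore fibres, at -0.010 ± 0.090. Of the anaphase genes, CDC20, the activator of the anaphase-promoting complex, was at 0.091 ± 0.066 (0.040 without RAJI) and the cohesin protease ESPL1 at -0.015 ± 0.081. The topoisomerase TOP2A was at 0.065 ± 0.075, the cytokinesis factor ECT2 at -0.014 ± 0.10 and FOXM1, a transcription factor of this phase, at 0.015 ± 0.080. None of the 40 differed in the same direction in all 8 lines, beside 55 of all tested genes (0.422%). Most of the 40 were divided evenly: 12 were higher with Y518R in 4 lines and 16 in 5 lines.

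Within the 4 MLL-fusion lines none of the 40 passed the test (0% of all tested genes did), and none had an unadjusted p under 0.05, against 5.90% of all genes. The 40 divided evenly, with 20 above 0 (50.3% of all tested genes) and a median of -0.0044. That balance rested on single lines: 34 lay above 0 without MOLM13, 8 without THP1 and 13 without RS4-11. MAD2L1 was higher with Y518R in 4 of 4 lines. Its levels with 3R and Y518R were 40.8 and 54.3 CPM in MOLM13, 99.8 and 106 in THP1, 132 and 132 in KOPN8, and 124 and 135 in RS4-11. Only MOLM13 showed a sizeable ratio, and the change over the 4 lines was 0.15 ± 0.084 (SE, n = 4, edgeR adjusted p = 0.846). CDC25B and CCNA2 were also higher in 4 of 4 lines, at 0.16 ± 0.090 and 0.12 ± 0.072. KIF4A was at 0.17 ± 0.10, CDC20 at 0.11 ± 0.097 and KIF20A, a kinesin of cytokinesis, at 0.12 ± 0.11. In the other direction CENPA was at -0.24 ± 0.13, CCNB2 at -0.18 ± 0.099, KIF14, a kinesin of the midbody, at -0.13 ± 0.15, and BUB1B at -0.12 ± 0.077. AURKB was at -0.11 ± 0.099 and BIRC5 (survivin), its partner in the passenger complex, at -0.099 ± 0.12. Leaving out 1 line moved these values both ways. CENPA ran from -0.33 to -0.095, CCNB2 from -0.25 to -0.055 and MAD2L1 from 0.071 to 0.20. The values that follow are those moved furthest towards or past 0. Without MOLM13 CENPA was at -0.095, CCNB2 at -0.055, BUB1B at -0.060, AURKB at -0.036, BIRC5 at -0.0058, MAD2L1 at 0.071 and KIF14 at 0.084. Without THP1 CDC25B was at 0.069, CDC20 at 0.050, KIF4A at 0.015 and KIF20A at -0.037.

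Within the 4 other lines 32 of the 40 lay above 0 (48.7% of all tested genes), with a median of 0.041. No member passed the test (0% of all genes). None had an unadjusted p under 0.05, against 1.58% of all genes. Without RAJI only 17 lay above 0 and the median was -0.0021, and the RAJI 3R library is the one with 44.7% of reads in no gene. Its part in this count was not tested. PLK1 had the lowest p here. Its levels with 3R and Y518R were 217 and 239 CPM in K562, 139 and 196 in RAJI, 147 and 128 in JURKAT, and 51.8 and 65.5 in P493-6, so JURKAT went the other way. Its change was 0.19 ± 0.12 (SE, n = 4, edgeR adjusted p = 1). UBE2C, the ubiquitin-conjugating enzyme of the anaphase-promoting complex, was at 0.14 ± 0.11 and, without RAJI, at -0.020. In K562 it had only 18 counts with 3R and 26 with Y518R. CDC25C was at 0.17 ± 0.15, KIF14 at 0.18 ± 0.15, BIRC5 at 0.13 ± 0.12 and CDC25B at 0.13 ± 0.089. Without RAJI PLK1 was at 0.093, CDC25C at 0.10, KIF14 at 0.088 and BIRC5 at 0.023, and CDC25B was at 0.070 without K562. Below 0, BUB1 was at -0.14 ± 0.12, with 299.7 CPM with 3R against 211 with Y518R in RAJI and much smaller differences in the other 3 lines, and it was at -0.025 without RAJI. CENPA (-0.065), AURKA (-0.044), CCNB2 (-0.043), BUB1B (-0.029) and HMMR, a spindle assembly factor (-0.017), lay close to 0.

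The difference between the classes, tested as such, was called for none of the 40 and for 0% of all genes. None of the 40 had an unadjusted p under 0.05, against 3.80% of all genes. The widest differences (MLL-fusion minus other) were -0.31 ± 0.21 for KIF14, -0.24 ± 0.16 for PLK1, -0.23 ± 0.17 for BIRC5 and -0.20 ± 0.15 for UBE2C. FOXM1 was at -0.18 ± 0.16 and AURKB at -0.15 ± 0.14. Above 0 stood MAD2L1 at 0.16 ± 0.12, KIF4A at 0.14 ± 0.15, BUB1 at 0.11 ± 0.17, CCNA2 at 0.10 ± 0.10, HMMR at 0.097 ± 0.17 and TOP2A at 0.079 ± 0.15. For KIF14 the 95% interval ran from -0.76 to 0.14, the widest of these genes. In all, 14 of the 40 lay above 0, beside 52.3% of all tested genes. The count was 29 without MOLM13, 3 without THP1, 9 without P493-6 and 8 with libraries scaled by their totals. The difference shares its libraries with the class comparisons, so the count is not separate evidence.

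Ratios differed from line to line, with a median SD over lines of 0.25 for the 40 and 0.25 for all tested genes. Within a line there was 1 library per peptide, so the ratios that follow carry no test, and their 95% intervals cover counting error only. Shares of all tested genes are given beside the counts. Low genes scatter more, and in each line 39 or 40 of the 40 reached 10 CPM, so the shares among genes at 10 CPM or more are given too, a background added after seeing the data. MOLM13 and THP1, both labelled MLL-AF9, stood at opposite ends. Chi-square per degree of freedom over all tested genes was 39.1 in MOLM13 and 64.2 in THP1, against 8.57 to 21.8 in the other lines. That measure is taken on counts and grows with depth. By the SD of the log2 ratios over all tested genes RAJI was widest, at 0.61, with 0.51 in THP1 and 0.505 in MOLM13. In MOLM13 35 of the 40 genes were lower with Y518R and 5 higher (47.2% of all genes were higher), with a median log2 ratio of -0.34 beside -0.014 for all tested genes. There 26 were lower by more than 1.2-fold, against 25.5% of all genes, and 1 was higher, against 21.8% (21.2% and 19.5% of genes at 10 CPM or more). In THP1 34 were higher (52.3% of all genes), with a median of 0.27 beside 0.016. There 21 were higher by more than 1.2-fold, against 22.9% of all genes, and 1 was lower, against 19.2% (18.05% and 15% of genes at 10 CPM or more).

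In MOLM13 the lowest ratio belonged to KIF14, which went from 71.4 CPM with 3R to 40.8 with Y518R, 0.572-fold (0.527 to 0.622). KIF11 went from 93.4 to 55.1 (0.59-fold, 0.549 to 0.634), CENPA from 12.3 to 7.25 (0.588-fold, 0.48 to 0.718), and DLGAP5 from 41.3 to 25.4 (0.616-fold, 0.553 to 0.685). CCNB2 (0.662-fold) and ECT2 (0.665-fold) were the other 2 genes lower by more than 1.5-fold. These genes come from different roles: motors, the centromere, spindle fibres, the entry switch and cytokinesis. The 5 genes above 0 in MOLM13 were MAD2L1, at 1.33-fold (1.22 to 1.45), CDC25B, CCNA2, PRC1 and BUB3, the last 4 at 1.04-fold to 1.08-fold. Summed, the 40 genes took 0.295% of gene counts with 3R and 0.2305% with Y518R.

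In THP1 the highest ratio belonged to CENPF, from 423 CPM to 689, 1.63-fold (1.59 to 1.66). TOP2A went from 586 to 893 (1.52-fold, 1.497 to 1.55) and KIF4A from 63.8 to 96.5 (1.51-fold, 1.43 to 1.60), and these 3 were the genes higher by more than 1.5-fold. KIF20A (1.47-fold), the proliferation antigen MKI67 (1.47-fold) and KIF11 (1.46-fold) followed. KIF11 therefore differed in opposite directions in the 2 MLL-AF9 lines. AURKB was the gene lower by more than 1.2-fold in THP1, from 22.9 CPM to 18.8 (0.823-fold, 0.736 to 0.919), and it was also lower in MOLM13 (0.788-fold). The 40 genes took 0.56% of gene counts with 3R and 0.724% with Y518R.

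RS4-11 and RAJI resembled THP1 in direction with smaller ratios. In RS4-11 35 of the 40 were above 0, beside 49.8% of all genes, with a median of 0.13. There 5 were higher by more than 1.2-fold (9.17% of all genes) and none lower (12.2%). Among genes at 10 CPM or more the shares were 3.28% and 3.98%. CENPE, the kinesin that gathers chromosomes at the metaphase plate, led with 56.4 and 78.2 CPM (1.39-fold, 1.31 to 1.47). In RAJI 35 were also above 0 (46.6% of all genes), with a median of 0.18. There 13 were higher by more than 1.2-fold (15.5%), led by UBE2C from 65.5 to 92.5 CPM (1.41-fold, 1.31 to 1.52) and PLK1 (1.40-fold), and BUB1 was lower (0.705-fold, 0.677 to 0.734), against 24.1% of all genes. Among genes at 10 CPM or more 12.2% were higher and 14.6% lower. The RAJI ratios rest on the 3R library with 44.7% of reads in no gene, whose part in them was not tested.

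The remaining 4 lines stayed near 0. In KOPN8 10 of the 40 were above 0 (49.8% of all genes), with a median of -0.073. There ECT2 (81.5 and 63.4 CPM, 0.778-fold), AURKA (87.2 and 70.1, 0.804-fold) and TTK, a checkpoint kinase (43.6 and 36.2, 0.83-fold), were lower by more than 1.2-fold, against 14.7% of all genes, and none was higher, against 13.3%. Among genes at 10 CPM or more the shares were 6.26% lower and 6.92% higher. K562 was balanced, with 20 above 0 (52.0%) and 3 higher by more than 1.2-fold (16%), namely CDC25B, MKI67 and INCENP at 1.21-fold to 1.22-fold, and none lower (13.4%). Among genes at 10 CPM or more 7.74% were higher and 5.75% lower. In JURKAT 26 were above 0 (46.6%), with a median of 0.055, and CDK1 alone passed 1.2-fold, from 209 to 251 CPM (9.80% of all genes higher, 14.7% lower, and 3.89% and 6.67% at 10 CPM or more). In P493-6 14 were above 0 (47.3%), with a median of -0.068, and PLK1, KIF14 and AURKB were higher (12.9%) while KIF11 and ECT2 were lower (11.4%) by more than 1.2-fold. There 4.83% of genes at 10 CPM or more were higher and 4.50% lower.

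**Figure D2:**
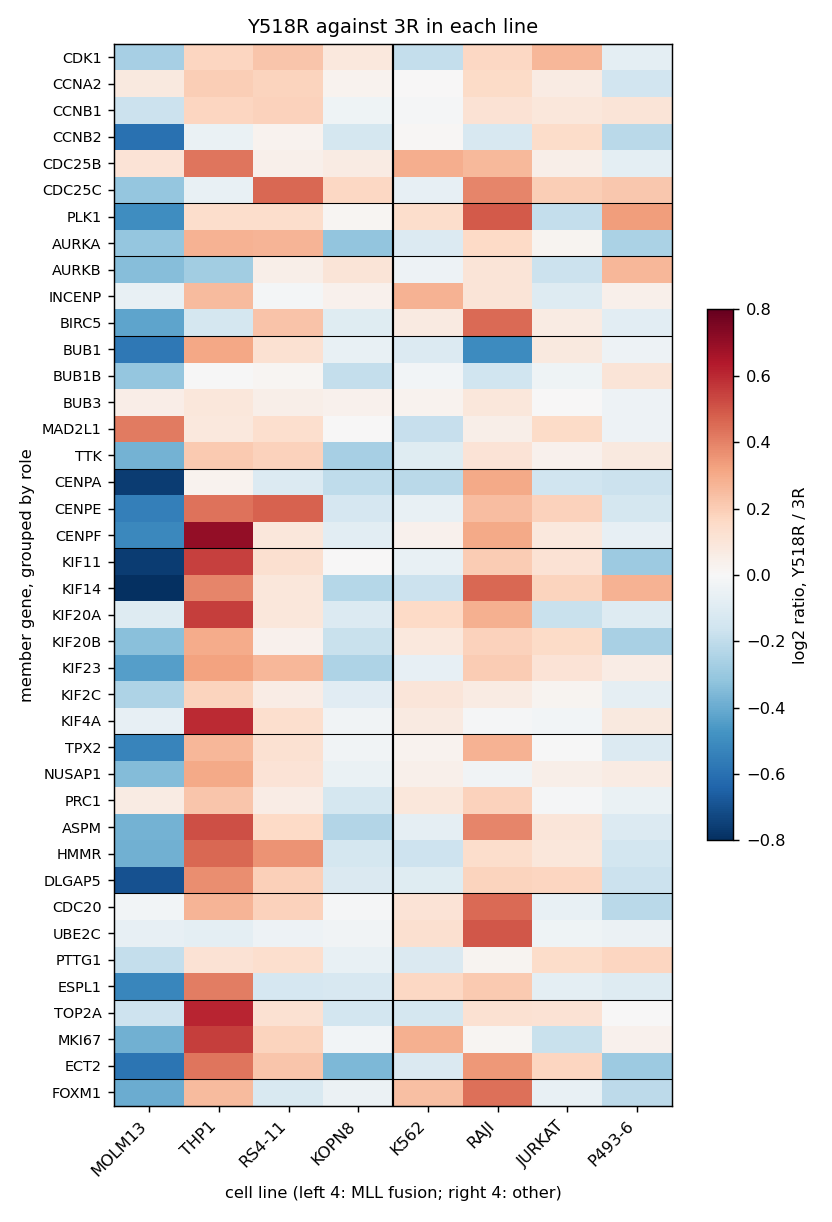
Log2 ratio of Y518R to 3R (colour) for the 40 genes, grouped by role (vertical axis), in the 8 cell lines (horizontal axis, MLL fusions left of the line). The MOLM13 column is lower for 35 genes and the THP1 column higher for 34, across the roles.

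The 40 genes differed in how closely they followed each other over the 8 lines. As a measure, the 8 ratios of each gene were correlated with the medians of the other genes. The 8 points share libraries, depth and scaling, and no test was made. The measure was not computed for other genes, so how many of those would follow these medians as closely is not known. The median correlation was 0.75, and 18 genes were above 0.8. DLGAP5 was closest to the rest (0.98), followed by TPX2, the activator of AURKA on the spindle (0.96), KIF11 (0.96), CENPF (0.95) and ECT2 (0.95). MAD2L1 was at the other end, with -0.42, since it was highest in MOLM13, where the others were low. AURKB (0.13), UBE2C (0.32), BUB3 (0.41), INCENP (0.44) and CDC25B (0.49) also stood below 0.5. BUB3, a checkpoint adaptor, hardly differed between peptides in any line: its ratios had an SD of 0.044 over lines, the lowest of the 40, beside a median SD of 0.25 for the 40 and 0.25 for all tested genes. With 3R and Y518R it was at 416 and 431 CPM in MOLM13, 133 and 142 in THP1, 382 and 392 in KOPN8, and 347 and 359 in RS4-11. It was at 265 and 271 in K562, 241 and 257 in RAJI, 307 and 307 in JURKAT, and 230 and 224 in P493-6.

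Other genes of mitosis and of the preceding phase were read from lists of textbook members, written with earlier results of these data known. Counts in these lists are therefore descriptions and not independent support. Over all 8 lines none of these lists had a gene called, and 49.1% of all tested genes lay above 0. Condensin, which compacts chromosomes, had 8 of 8 genes above 0 (median 0.041, NCAPH at 0.11 ± 0.064 and NCAPD2 at 0.057 ± 0.058). The kinetochore had 15 of 23 (median 0.020, ZWINT at 0.086 ± 0.046 and CENPM at 0.12 ± 0.068). Cohesin and its regulators had 8 of 14 (median 0.013, SMC1A at 0.11 ± 0.053 and NIPBL at -0.072 ± 0.069), and the anaphase-promoting complex 7 of 16 (median -0.0042, ANAPC16 at -0.081 ± 0.049 and ANAPC4 at 0.078 ± 0.064). These medians all lay close to 0, as did those of the centrosome, with 9 of 13 above 0 (median 0.014, NEK2 at 0.12 ± 0.073 and CEP55 at 0.058 ± 0.078), and of other mitotic motors, with 8 of 23 (median -0.010, KIF22 at 0.082 ± 0.047 and CIT at 0.11 ± 0.073). The brakes that hold cells in G2, among them the damage kinases, had 6 of 12 (median 0.0015, CHEK2 at -0.14 ± 0.064 and CHEK1 at 0.099 ± 0.056). DREAM and MuvB, the complexes that bind the CHR, had 7 of 12 (median 0.038). In that list MYBL2, the B-MYB factor, was at 0.15 ± 0.070 and E2F5, a repressor in DREAM, at -0.16 ± 0.088.

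Genes of DNA replication gave another reading of the cycle. Of 30 S phase genes 29 lay above 0 over the 8 lines (49.1% of all tested genes), with a median of 0.092. The lowest p-values were those of MCM7, a subunit of the replicative helicase (0.17 ± 0.069), and GINS1, of the complex that joins it (0.16 ± 0.064). None was called. In the MLL-fusion lines 29 lay above 0 (50.3% of all tested genes), with a median of 0.14. In the other lines 24 did (48.7%), with a median of 0.041. Runs that leave out a line were not made for this list. In MOLM13 the S phase genes and the G2/M genes lay on opposite sides of 0: 25 of 30 S phase genes were above 0 with a median of 0.27, while 35 of the 40 G2/M genes were below. KOPN8 had the same arrangement at lower amplitude, with 24 of 30 S phase genes above 0 (median 0.13) and 30 of the 40 below. In THP1 (25 of 30, median 0.16) and RAJI (24 of 30, median 0.15) both groups were above 0. In RS4-11 (14 of 30, median -0.0022), K562 (19 of 30, median 0.034), JURKAT (17 of 30, median 0.031) and P493-6 (14 of 30, median -0.016) the S phase median was close to 0. Medians of the other lists in MOLM13 were -0.32 for other motors (3 of 23 above 0), -0.24 for the centrosome (1 of 13), -0.24 for DREAM and MuvB (3 of 12), -0.21 for condensin (3 of 8), -0.21 for the kinetochore (9 of 23) and -0.20 for cohesin (5 of 14). The anaphase-promoting complex, at -0.0026 (8 of 16), and the G2 brakes, at -0.022 (6 of 12), stayed near 0. Whether the separation in MOLM13 and KOPN8 exceeds the spread of repeat cultures could not be tested with 1 library per peptide.

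**Figure D3:**
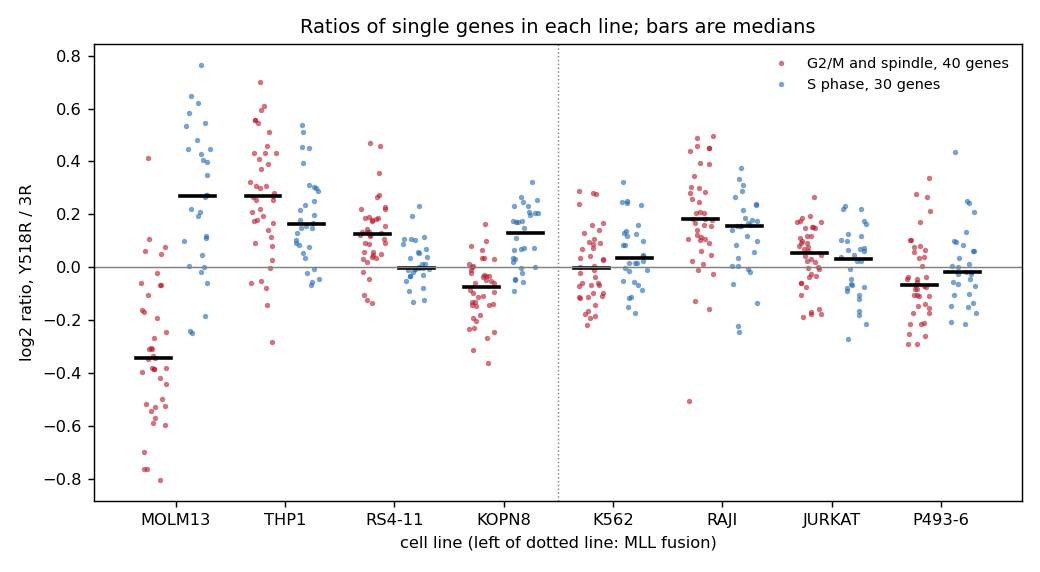
Log2 ratio of Y518R to 3R (vertical axis) in each line for single G2/M and S phase genes (dots), with bars for the medians. In MOLM13 the medians are -0.34 for G2/M and 0.27 for S phase genes, and in THP1 both are above 0 (0.27 and 0.16).

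Differences between lines were far larger than those between peptides. The level of all 40 genes differed between the 8 lines (edgeR F test over lines, highest adjusted p of the 40 was 9.3e-07), as did 98.3% of all tested genes, where the spread is that between the 2 libraries of a line. The mean of the 2 libraries of a line ranged over 2.26 log2 units (4.77-fold) in the median gene, against 2.27 for all genes. The median absolute log2 ratio between the peptides was 0.14, which is not a range over 8 lines. As SDs over the 8 lines, the medians were 0.83 for levels and 0.25 for peptide ratios. P493-6 and MOLM13 were low. Relative to each gene's mean over lines, the median of the 40 was -1.06 with 3R and -1.12 with Y518R in P493-6, and -0.84 and -1.19 in MOLM13. P493-6 was the lowest line for 19 genes and MOLM13 for 16. RS4-11 followed at -0.28 and -0.15, then THP1 at 0.18 and 0.51, RAJI at 0.34 and 0.44, KOPN8 at 0.47 and 0.45, and K562 at 0.64 and 0.59. JURKAT was at 0.73 and 0.71, with all 40 genes above their mean. K562 was the highest line for 15 genes, JURKAT for 14 and KOPN8 for 9. P493-6 and MOLM13 change places with the peptide, and so do THP1, RAJI and KOPN8, so those neighbours are not separated.

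**Figure D4:**
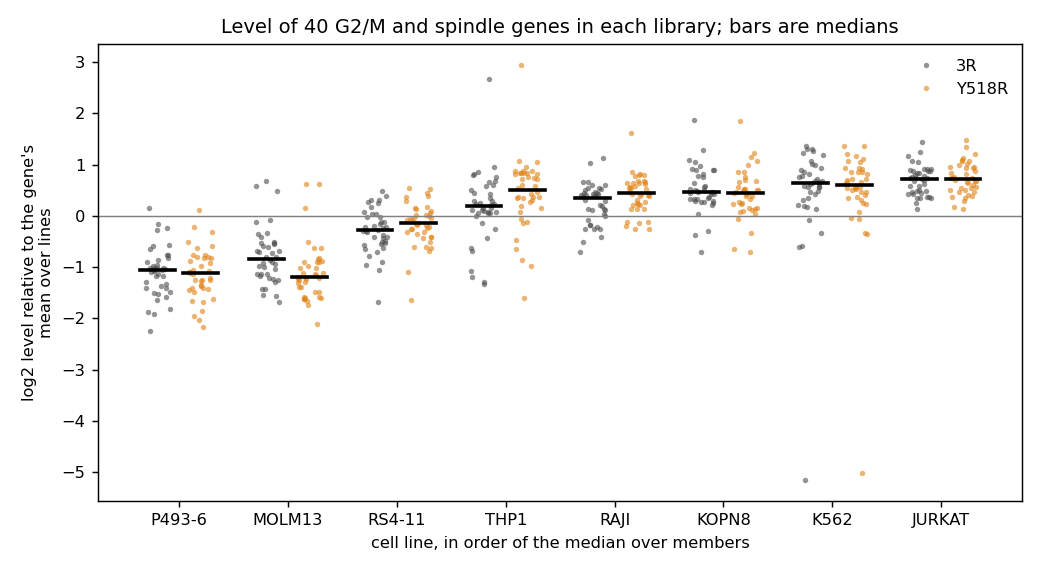
Log2 level of each of the 40 genes relative to that gene's mean over lines (vertical axis) in the 16 libraries, with lines in order of the median (bars). P493-6 and MOLM13 lie about 1 log2 unit below the mean, and every gene of JURKAT lies above it.

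Genes differed in which line was high. UBE2C had the widest range: its mean was 0.885 CPM in K562 and 109 in KOPN8, a 123-fold range. In K562 it was at 0.776 CPM (18 counts) with 3R and 0.856 CPM (26 counts) with Y518R, while the next lowest line, RS4-11, was at 14.4 and 14.0. Another anaphase gene, CDC20, was not low in K562 (148 and 159 CPM). CDC20 was at 766 and 924 CPM in THP1, and in the other lines it ran from 33.1 in P493-6 to 159 in K562. TTK ranged from 12.2 CPM in P493-6 to 155 in JURKAT, and CCNA2 from 44.6 in MOLM13 to 357 in K562. The narrowest ranges were those of BUB3 (138 in THP1 to 424 in MOLM13), KIF23, a motor of the midzone (35.7 in MOLM13 to 114 in JURKAT), CENPF (170 in P493-6 to 554 in JURKAT) and MAD2L1 (47.1 in MOLM13 to 163 in K562). BUB3 departed from the usual order, since MOLM13 was its highest line.

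**Figure D5:**
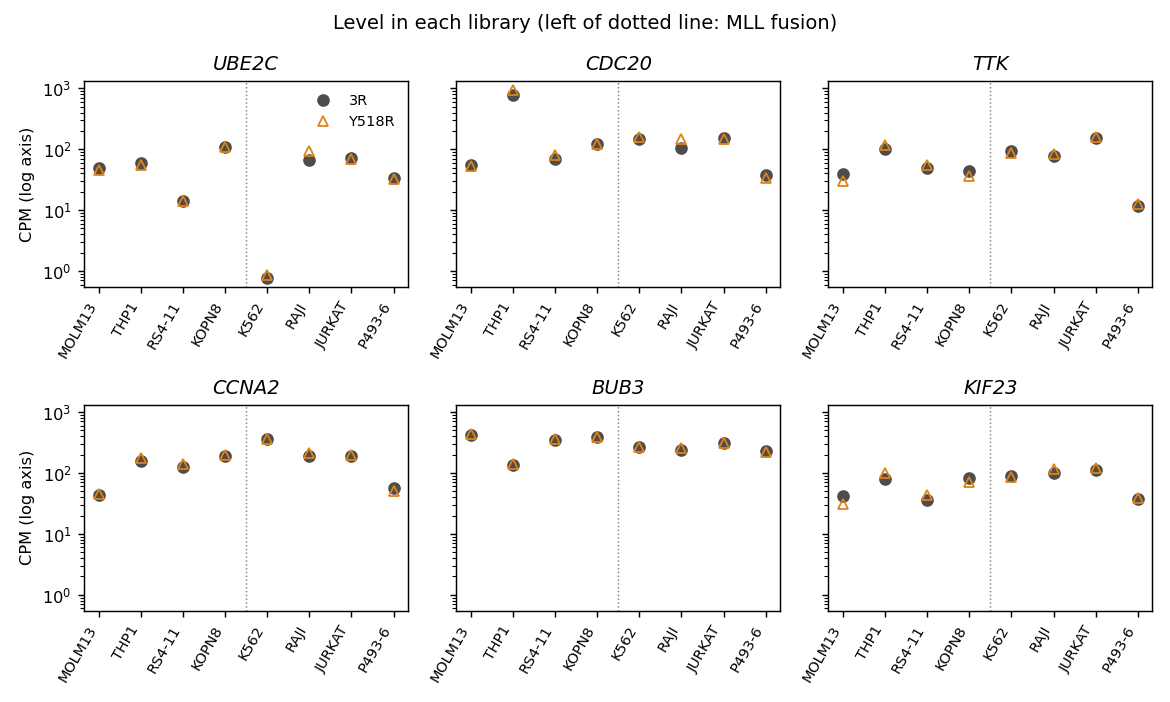
CPM on a log axis (vertical) of selected genes in the 8 lines (horizontal), with circles for 3R and triangles for Y518R. The symbols of a line nearly coincide where the lines themselves lie far apart, as for UBE2C, near 0.8 CPM in K562 and at 14.0 CPM or more in the other lines.

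The level with 3R was compared between the classes, to show how the classes differed under the control peptide. Of the 40 genes 33 were lower in the MLL-fusion lines and 7 higher, while 49.2% of all tested genes were higher. The median of the 40 was -0.29, beside -0.013 for all tested genes. None was called (edgeR adjusted p of at least 0.596), against 7 of all genes (0.0534%), and none had an unadjusted p under 0.05, against 10.1% of all genes. Levels of the classes overlapped for all 40, and 7.43% of all genes did not overlap. The 7 above 0 became 19 without MOLM13, 16 without K562, 16 without JURKAT, 2 without KOPN8 and 3 without P493-6, and they were 11 in limma-voom. BUB1 was furthest below, at -0.81 ± 0.48, with 50.3 to 170 CPM in the MLL-fusion lines and 86.2 to 299.7 in the others. CDK1 was at -0.72 ± 0.52, ECT2 at -0.63 ± 0.46, CDC25B at -0.60 ± 0.46, CCNB1, the main mitotic cyclin, at -0.59 ± 0.51 and KIF23 at -0.50 ± 0.43. Above 0, CDC20 was at 1.19 ± 0.90, but at -0.43 without THP1. UBE2C was at 0.43 ± 1.05, BUB3 at 0.29 ± 0.35, NUSAP1, a microtubule bundler, at 0.21 ± 0.56, FOXM1 at 0.19 ± 0.49 and CENPF at 0.10 ± 0.41.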

How the data were processed

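Gene counts of 16 libraries were used, 1 per peptide in each of 8 lines. Each deposited table gives an unnormalized read count for every gene symbol. Tools in the submitters' processing notes are HTSeq 0.6.1, TopHat2 2.1.1, CASAVA 1.8.4, DESeq and DESeq2 3.0, and builds are GRCh38 and hg19, with no role given. The sources used here do not give the strand setting, so reads of a gene and an antisense partner cannot be told apart. In each library 5 entries that name no gene were left out.

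Counts were tested with edgeR 4.0.16 (R 4.3.3): quasi-likelihood test, TMM, filterByExpr at a minimum count of 10 (13043 genes, and 13107 for 3R levels alone), cell line as block, Benjamini-Hochberg over all tested genes, calls at 0.05. The classes shared a fit with a peptide term each. The SE is the log2 change over the root of the F statistic. The block rests on the line in the labels: deviations of the libraries of a line from the peptide means correlated at 0.945 to 0.972, and at most 0.408 with another line. Chi-square per degree of freedom within lines was 8.57 to 64.2, so the libraries of a line differed by more than sampling noise. Within lines, ratios were taken between TMM-scaled CPM (prior count 2), and intervals are exact and cover counting error only, as reads lack molecular identifiers. A count of 0 allows 3 counts, 0.0698 to 0.155 CPM. Scripts were tested on simulated data.

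The 40 genes and the lists were chosen with earlier results of these data known. Named were, per comparison, the 6 genes of lowest p in each direction, the extremes of each role, the 4 widest and 4 narrowest ranges over lines and 2 genes of each other list. Genes named within single lines were chosen after their values were seen. Alternatives were DESeq2 1.42.0, limma-voom (limma 3.58.1), other scalings, no filter, no block, other fold limits and prior counts, Y518R or both libraries for levels, and leaving out each line.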

Additional observations from a re-analysis of the deposited data

Results flagged for a closer look

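In 121 sets of 8 values (the level with each peptide and the ratio of each gene, and the median ratio of the 40 genes), the highest or lowest value was compared with its nearest neighbour. Chance sets apart about 1 in 20 of such sets, and 8 were set apart here. CDC20 was highest in THP1 with both peptides, at a log2 CPM of 9.58 with 3R (the next line was at 7.25) and 9.85 with Y518R (7.32). UBE2C was lowest in K562 with both, at -0.24 with 3R (3.85) and -0.11 with Y518R (3.81). KIF20B, a kinesin of cytokinesis, was lowest in RS4-11 with 3R, at 4.56 (5.80). Among the ratios of Y518R to 3R, THP1 stood above the other lines for TOP2A, at 0.61 (0.12), and for KIF4A, at 0.60 (0.14). RAJI did so for UBE2C, at 0.50 (0.13). The neighbour there was K562, where UBE2C had only 18 counts with 3R and 26 with Y518R.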

How the results depend on the processing

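With 4 or 8 lines and 1 library per peptide, small changes could not be separated from the spread between lines. None of the 40 genes was called in any peptide or class comparison under any alternative run, and all 40 differed between lines under each alternative run for levels. Scaling moved the median of all genes by less than 0.1. The counts called among all genes moved. Over 8 lines limma-voom gave 3 and no filter 3, in place of 0. In MLL-fusion lines DESeq2 gave 1, limma-voom 20, no filter 52 and leaving out a line 0 to 3 (3 without MOLM13), in place of 0. In other lines limma-voom gave 2 and no filter 1. For the class difference DESeq2 gave 2, limma-voom 2, no filter 9 and leaving out a line 0 to 1. For 3R levels DESeq2 gave 477, limma-voom 4, the Y518R libraries 4 and leaving out a line 4 to 11, in place of 7. The cause was not tested.

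Past 1.5-fold in place of 1.2-fold, MOLM13 had 0 genes higher and 6 lower, THP1 3 and 0, and the 6 other lines 0 and 0. With library totals THP1 had 0 lower, RS4-11 3 higher and KOPN8 5 lower. Restricting the background to genes at 10 CPM or more lowered the shares past 1.2-fold in all 8 lines, to 3.28% higher and 3.98% lower in RS4-11.

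The replicate block pairs the libraries of a line. Without it, and with limma-voom, signs reversed over 8 lines for KIF11 (0.036 and 0.0092), DLGAP5 (0.059 and 0.034), ESPL1 (0.031 and 0.014) and ECT2 (0.055 and 0.028), and in other lines without it for HMMR (0.0012). The block changed no call of the 40. Leaving out a line (lowest to highest) reversed signs of small changes over 8 lines for AURKB (-0.079 to 0.0069), AURKA (-0.075 to 0.011), CENPF (-0.021 to 0.15), TOP2A (-0.012 to 0.098), FOXM1 (-0.046 to 0.071, without THP1 -0.019), KIF11 (-0.085 to 0.094, without P493-6 0.029), DLGAP5 (-0.065 to 0.080, without KOPN8 0.00037), ESPL1 (-0.075 to 0.050, without RS4-11 0.0056) and ECT2 (-0.077 to 0.061, without KOPN8 0.033, without P493-6 0.024). In MLL-fusion lines it did for KIF20A (-0.037 to 0.19) and KIF14 (-0.31 to 0.084), and in other lines for UBE2C (-0.020 to 0.22), CCNB2 (-0.11 to 0.010), AURKA (-0.11 to 0.022), BUB1B (-0.071 to 0.014) and HMMR (-0.071 to 0.030, without P493-6 0.021). For the class difference it did for KIF4A (-0.014 to 0.20), BUB1 (-0.013 to 0.26, without THP1 -0.0091), HMMR (-0.035 to 0.24) and TOP2A (-0.090 to 0.16). For 3R levels it did for CDC20 (-0.43 to 1.53), UBE2C (-0.094 to 0.78), NUSAP1 (-0.36 to 0.49, without P493-6 -0.063), FOXM1 (-0.14 to 0.51, without P493-6 -0.056) and CENPF (-0.13 to 0.37, without KOPN8 -0.10).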

Other observations

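Replication genes in MOLM13 differed among themselves. All 6 MCM helicase subunits were higher with Y518R there, from a log2 ratio of 0.12 for MCM6 to 0.77 for MCM2, with MCM5 at 0.65 and MCM7 at 0.62. Both ribonucleotide reductase subunits were higher too (RRM1 at 0.58, RRM2 at 0.53), as was SLBP, which binds histone mRNA (0.45). CCNE1, the cyclin of S phase entry, was at -0.24, the clamp loader subunit RFC4 at -0.25 and GINS4 at -0.18. In THP1 RRM2 was at 0.51 and MCM2 at 0.18. MYBL2 was at 0.47 in MOLM13 and 0.20 in THP1, so it went with the S phase genes and not with the mitotic genes in MOLM13. These are ratios of single libraries, with no test, and these genes were picked by their values.

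The damage kinase CHEK2 was higher with Y518R in 1 of 8 lines, with log2 ratios from -0.33 in THP1 to 0.042 in JURKAT. Its change over the 8 lines was -0.14 ± 0.064 (SE, n = 8, edgeR adjusted p = 1). The inhibitor CDKN1A ranged more widely and in both directions, from -0.47 in JURKAT to 0.57 in THP1.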
